A study of Mus musculus with 8 samples.

Results

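The HDAC1 sites described here are the weaker peaks of the HDAC1 list that lie apart from acetylated histone H3. Sites were selected on their deposited peak score, under a limit just above 124.75, the highest score among them, and on sharing no base with an H3ac peak of day 2, 4 or 6, on chromosomes 1 to 19 and X. This held for 3130 of the 5286 HDAC1 peaks, of which 5282 were on those chromosomes. The other HDAC1 peaks were 393 stronger sites without H3ac, 1623 weaker sites with H3ac and 136 stronger sites with H3ac. The scores and the lack of overlap chose the sites, so both are given as a description and support nothing.

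The cells were mouse embryonic stem cells (ESCs) of strain 129/Ola that differentiated on gelatin in N2B27, a serum-free medium. HDAC1 was mapped on day 2 by chromatin immunoprecipitation and sequencing (ChIP-seq) through a 3 FLAG tag on the protein, and acetylated H3 on days 2, 4 and 6 with an antibody to the modified histone. There were 8 libraries, a ChIP and an input for HDAC1 and for H3ac of each day, and no group was treated or mutated. With 1 library per group no difference between days or classes of sites could be tested, and neighbouring peaks are not replicates. The 95% Wilson intervals below cover counting error only, and the lists give no read depth.

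HDAC1 is a class I histone deacetylase that removes acetyl groups from histone tails. It has no DNA-binding domain of its own and reaches chromatin in the Sin3, NuRD and CoREST complexes, which DNA-binding factors recruit. One such factor is REST, which binds the RE1 element and holds neuronal genes silent in cells outside the nervous system, embryonic stem cells among them. The RE1 element has a left and a right part with a short spacer, and REST is also known to bind the parts when they lie further apart. HDAC1 is also found at active, acetylated promoters, so a site apart from H3ac is 1 of several settings in which it occurs.

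Gene starts under these sites included 8 that hold both RE1 cores close together, CAGCACC of the left part and GGACAGC of the right part. The first 4 sequences have a spacer of 2 bases and the next 3 a spacer of 7 or 9 bases, and the eighth, of a noncoding gene, is not shown. They are shown because they are the DNA under the sites in which the cores were found. Each is 5′ to 3′ on the strand of the gene, from RefSeq (GRCm38.p6), with the cores in capitals, and a core pair on the opposite strand reads GCTGTCC and then GGTGCTG.
Lhx3 (chr2:26208235-26208330, minus strand): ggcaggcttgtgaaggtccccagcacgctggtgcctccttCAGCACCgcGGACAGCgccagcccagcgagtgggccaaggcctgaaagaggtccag
Fbll1 (chr11:35799018-35799113, minus strand): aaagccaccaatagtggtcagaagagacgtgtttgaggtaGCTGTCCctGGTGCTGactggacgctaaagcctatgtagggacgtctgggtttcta
Ogdhl (chr14:32321876-32321971, plus strand): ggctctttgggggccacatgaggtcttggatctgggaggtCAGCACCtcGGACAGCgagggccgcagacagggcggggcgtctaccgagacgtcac
Ttc9b (chr7:27653901-27653973, plus strand): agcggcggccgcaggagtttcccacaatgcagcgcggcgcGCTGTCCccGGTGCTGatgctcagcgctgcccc
Grm2 (chr9:106656289-106656359, minus strand): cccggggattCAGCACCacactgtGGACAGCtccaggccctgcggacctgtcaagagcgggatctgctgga
Kcnh6 (chr11:106007924-106008024, plus strand): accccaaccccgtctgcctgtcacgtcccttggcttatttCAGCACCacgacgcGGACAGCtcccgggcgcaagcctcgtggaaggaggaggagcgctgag
Marchf4 (chr1:72537110-72537206, minus strand): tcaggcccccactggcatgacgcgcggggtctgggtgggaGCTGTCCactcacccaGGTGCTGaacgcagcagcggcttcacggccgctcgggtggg
The start of Cartpt, which encodes the precursor of a neuropeptide, lay under the highest-scoring site at a promoter window, with a score of 123.59. It is shown whole (250 bases before to 50 bases after the start), with the 228 bases under the peak in capitals, and the nearest H3ac peak of day 2 was 61127 bp away, that of day 4 109070 bp and that of day 6 200880 bp.
Cartpt (chr13:99900634-99900933, minus strand): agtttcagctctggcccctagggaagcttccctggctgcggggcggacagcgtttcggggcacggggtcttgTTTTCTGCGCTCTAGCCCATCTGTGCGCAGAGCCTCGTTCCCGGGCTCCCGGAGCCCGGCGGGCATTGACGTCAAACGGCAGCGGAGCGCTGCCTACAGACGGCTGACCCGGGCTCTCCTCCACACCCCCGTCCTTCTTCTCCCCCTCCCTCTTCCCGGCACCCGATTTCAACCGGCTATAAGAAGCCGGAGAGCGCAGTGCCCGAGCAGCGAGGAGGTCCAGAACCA

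Among the microRNA genes near the sites were 2 clusters known from embryonic stem cells and a few genes known from neurons. The mature sequences below, from RefSeq, come from hairpins of these clusters and genes, whose sites are described later, and the seed (bases 2 to 8), which pairs with target transcripts, is in capitals. In these 10, miR-106a-5p and miR-20b-5p shared a seed, as did miR-294-3p and miR-295-3p, miR-132-3p and miR-212-3p, and miR-92a-3p and miR-363-3p.
miR-20b-5p: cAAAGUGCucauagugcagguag
miR-106a-5p: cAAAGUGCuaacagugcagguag
miR-92a-3p: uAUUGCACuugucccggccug
miR-363-3p: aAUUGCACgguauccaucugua
miR-294-3p: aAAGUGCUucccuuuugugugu
miR-295-3p: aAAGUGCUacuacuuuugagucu
miR-132-3p: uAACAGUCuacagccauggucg
miR-212-3p: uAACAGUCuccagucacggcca
miR-137-3p: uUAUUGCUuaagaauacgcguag
miR-9-5p: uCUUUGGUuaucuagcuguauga

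The HDAC1 list held scores from 50 to 3100 and the H3ac lists 17368, 12945 and 5553 peaks on days 2, 4 and 6. Of the 6 pluripotency markers Pou5f1, Sox2, Nanog, Utf1, Zfp42 and Dppa4, 5 had day 2 H3ac at a gene end, within 1 kb, and 1 (Sox2) had it on days 4 and 6. Of the 5 neural progenitor markers Sox1, Pax6, Zic1, Fabp7 and Nes, 1 had it on day 2, 4 on day 4 and 2 on day 6. Among all protein-coding genes 41.0%, 38.4% and 23.6% had it on days 2, 4 and 6. HDAC1 was mapped on day 2, and the set of these few markers with a called H3ac peak was not the same on the later days.

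Most of the weaker H3ac-free sites lay away from gene ends. Of the 3130 midpoints, 1386 (44.3%, 95% interval 42.5 to 46.0%) lay outside protein-coding genes, 1366 (43.6%, 41.9 to 45.4%) inside a gene body, and 378 (12.1%, 11.0 to 13.3%) within 1 kb of a start or stop of a protein-coding gene. These classes make up 59.2%, 37.8% and 3.00% of all bases between the first and last gene of each chromosome, so the share at gene ends stood above and the share outside genes below what the bases alone give. The 393 stronger H3ac-free sites had close to the same split, with 11.5% at gene ends (8.67 to 15.0%), 40.2% in gene bodies and 48.3% outside, and all 3 intervals overlapped those of the weaker sites. Weaker sites that overlap H3ac differed, with 74.6% (72.4 to 76.6%) at gene ends and 6.16% outside. Overlap with H3ac defines this contrast, so it is a description.

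**Figure D1:**
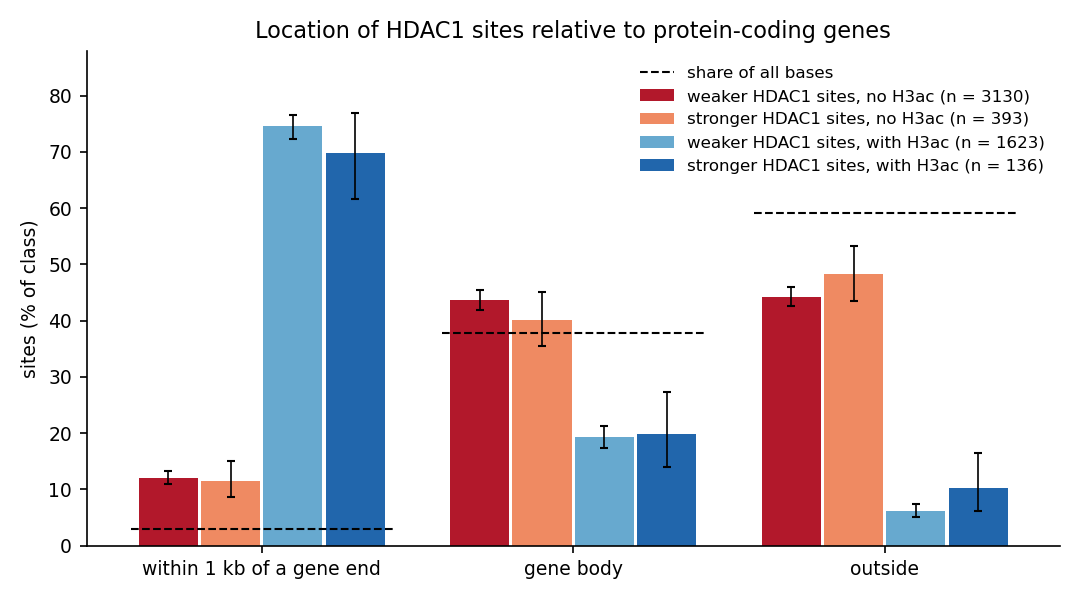
Share of HDAC1 sites (%) within 1 kb of a protein-coding gene end, in a gene body or outside, for the 4 classes of HDAC1 sites. Bars give shares, error bars 95% Wilson intervals and dashed lines the share of all bases. The H3ac-free classes, at 12.1% and 11.5% at gene ends, sit far below both H3ac-overlapping classes.

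At gene ends the sites favoured starts, though less completely than sites with H3ac did. Strand was known for 294 of the 378 gene-end sites, and 228 of them (77.6%, 72.4 to 81.9%) were nearest to a start and 66 to a stop. The share was 98.5% (97.5 to 99.1%) for weaker sites with H3ac and 84.8% (69.1 to 93.3%) for stronger H3ac-free sites. Of the 228 sites at a start, 140 (61.4%) were centred downstream of it, with a median position 113 bp downstream, against 76.1% and 180 bp for weaker sites with H3ac.

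The 10 highest-scoring sites within 1 kb of an end in the gene table included several neuronal genes. The Cartpt and Scg3 sites are not among them, since they lie more than 1 kb inside the end of the gene given there. Drd2, the dopamine D2 receptor, had a site of score 124.29 centred 878 bp inside its start (chr9:49341060-49341417), 50.8 kb from H3ac. Kcnt1, a sodium-activated potassium channel, had one of 123.42 centred 243 bp from a gene end and 23.3 kb from H3ac. Rundc3a, known from neurons, had a site of 116.57 centred 24 bp from a gene end and 12.3 kb from H3ac, and Slc35f4, a solute carrier, one of 116.65 that was 290 kb from H3ac. At the ends of these 4 genes there was no H3ac peak on any day.

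Other genes of this group stood beside acetylated chromatin. The site of Ctbp1, a corepressor that works with HDAC1, scored 117.50 and was 549 bp from H3ac. Those of Cirbp, an RNA-binding protein induced by cold, and Chka, a choline kinase, scored 115.73 and 118.95 and were 709 bp and 515 bp from H3ac. Maco1, the gene of macoilin, had a site of 110.78 that was 298 bp from H3ac. The remaining 2 were Arhgap33 with 119.84 and 8583 bp, and Fbll1, a fibrillarin-like protein, with 116.76 and 27655 bp. The high-scoring gene-end sites thus ranged from 298 bp to 290 kb from the nearest H3ac peak.

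Sites in gene bodies were spread along the genes. For the 1067 with known strand the median position was 43.0% of the way from start to stop, with 321 (30.1%) in the first 25% of the gene and 214 (20.1%) in the last 25%. Weaker sites with H3ac in gene bodies had 63.6% and 2.48%. Trio, a guanine nucleotide exchange factor in axon growth, held 5 sites, which scored 50.10, 50.76, 55.68, 63.63 and 96.92, and their distances to H3ac ran from 1502 bp to 67244 bp. Anks1b, a postsynaptic scaffold, held 4 with scores from 59.13 to 116.81, all between 12.1 and 71.3 kb from H3ac. Rbfox3, the neuronal splicing factor whose protein is the marker NeuN, held 4 with scores from 52.25 to 104, between 32.9 and 117 kb from H3ac, and had 2 stronger H3ac-free sites as well.

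The other genes among the 10 with most sites in the gene or within 10 kb, ties ordered by summed score, were also long. Gpc5, a glypican, held 4 sites (59.83 to 113.07) of which 3 were 713 kb or more from H3ac. Msi2, an RNA-binding protein of stem and progenitor cells, held 4 (59.79 to 104.09), and 1 was 455 bp from H3ac. Caln1, a calcium-binding protein of neurons, Nav2, a neuron navigator, Mtus2 and Fam155a, a subunit of the NALCN sodium channel complex, had 4 each, and Bcas3 had 3. These 10 genes were between 295200 bp and 1432992 bp long, and the median over all 21631 protein-coding genes was 17329 bp. Shorter genes with 3 sites were Grip2 (82503 bp) and Stag3 (39884 bp).

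Sites outside protein-coding genes lay at a median of 35.0 kb from the nearest gene end (quartiles 10.4 and 133 kb). Of these 1386 sites, 333 (24.0%) were within 10 kb of a gene end and 421 (30.4%) were over 100 kb away. A long noncoding RNA gene was overlapped by 221 of them (15.9%, 14.1 to 18.0%), and by 348 of all 3130 sites (11.1%, 10.1 to 12.3%), against 9.30% (7.99 to 10.8%) of weaker sites with H3ac. No snoRNA or tRNA gene was overlapped, which allows a share of up to 0.123% of sites (the upper 95% Wilson bound).

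A site lay inside or within 10 kb of 2328 of 21631 protein-coding genes (10.8%), inside 1472 of them (6.81%), and was centred within 1 kb of an end of 411 (1.90%). For the fewer stronger H3ac-free sites these shares were 1.43% within 10 kb and 0.222% at an end, and for weaker sites with H3ac 10.9% and 6.55%. Of the 2328 genes, 2031 had 1 site, 251 had 2, 37 had 3, 8 had 4 and 1 had 5. The share rose with gene length, from 4.67% of the shortest 20% of genes to 21.96% of the longest 20%, which start at 57776 bp, and for gene-end sites from 1.36% to 2.43%. The 20 gene lists below are therefore given with their median length.

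Lists of neuronal genes stood above the 10.8% of all genes with a site inside or within 10 kb, but their median lengths were also above the 17329 bp of all genes. Of 54 neuronal genes known or thought to be under REST, 22 (40.7%) had a site inside or within 10 kb and 7 (13.0%) had one at a gene end, with a median gene length of 41653 bp. Of 44 voltage-gated ion channel genes, 19 (43.2%) had a site and 5 (11.4%) had one at an end, with a median length of 164699 bp. Of 38 neurotransmitter receptor genes the counts were 8 (21.1%) and 4 (10.5%), with 218496 bp. Of 46 axon guidance and synaptic adhesion genes 17 (37.0%) had a site and none had one at an end, with a median length of 401 kb. The longest genes, those from 57776 bp with a median of 109268 bp, had a site in 21.96% and one at an end in 2.43%. The receptor share of 21.1% was no higher than 21.96%, while the REST, channel and axon guidance shares were above it. The channel, receptor and axon guidance medians were above 109268 bp, so for these lists the comparison is not matched for length. Whether their shares exceed those of equally long genes was not tested. The REST-list median was below 109268 bp. At an end the receptor, REST and channel shares were above 2.43%, and the axon guidance list had none. The part of gene length in these counts was not tested, and lists overlap, since Cacna1a, Cacna1b, Hcn3, Scn3b and Kcnh2 are both REST-list genes and channels.

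**Figure D2:**
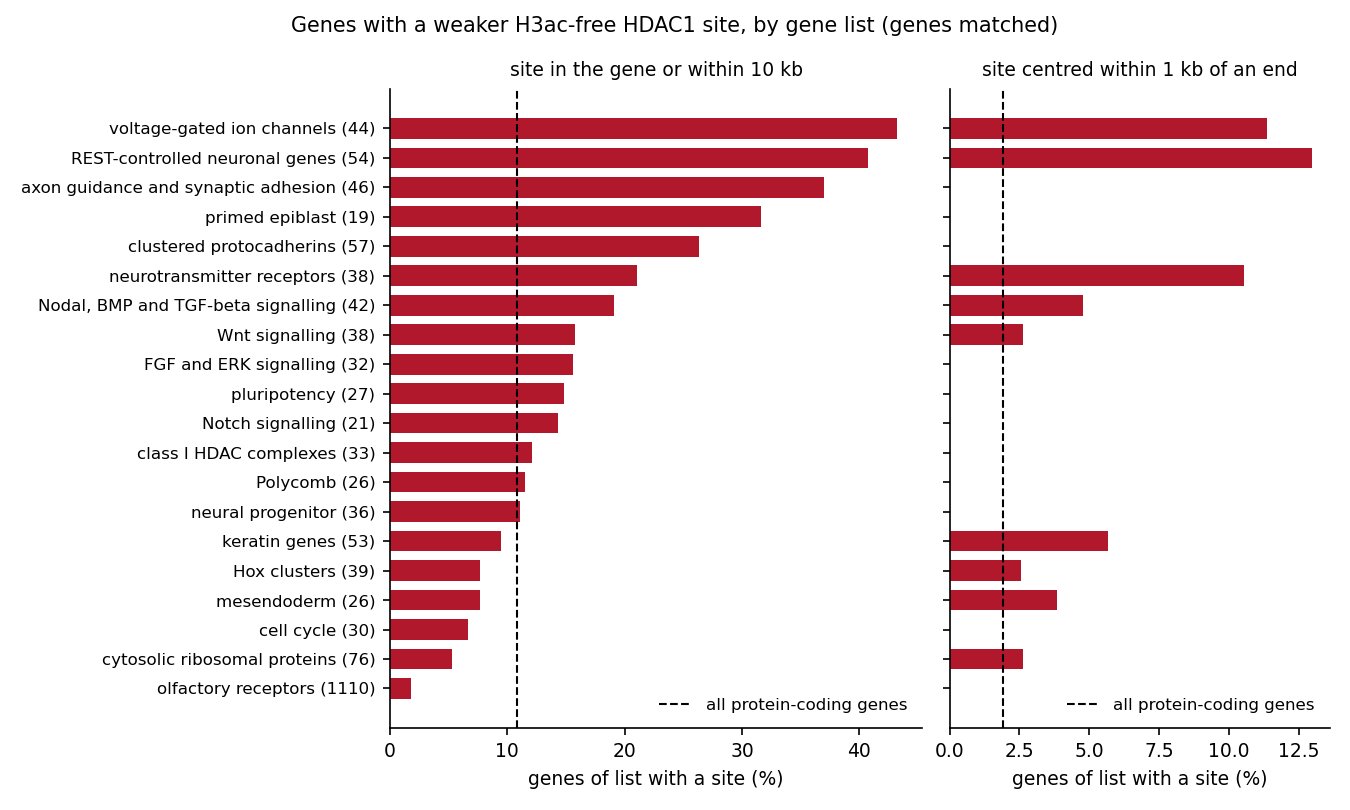
Percentage of the genes of 20 lists with a weaker H3ac-free HDAC1 site in the gene or within 10 kb (left) or centred within 1 kb of a gene end (right), with the number of genes matched in brackets. Dashed lines give all protein-coding genes, 10.8% and 1.90%. REST-controlled genes, ion channels and neurotransmitter receptors lie above both lines, as do Nodal, BMP and TGF-beta signalling and Wnt signalling.

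The REST-list genes carried 28 distinct sites with scores from 50 to 122.74 and a median of 75.77, where all 3130 sites had a median of 62.5. Their median distance to H3ac was 6.54 kb, with 16 of 28 within 10 kb, and that of all sites was 30.8 kb. All sites include 1386 outside genes, at a median of 49.1 kb, while gene-end sites were at 10.3 kb and gene-body sites at 24.98 kb. Score and H3ac overlap chose the sites, so these values are a description. Scg3, which encodes the granule protein secretogranin III, had a site of 122.74 that was 58 bp from day 2 H3ac. It covered a RefSeq start of Scg3. Bdnf, the neurotrophin, had a site of 99.35 that was 491 bp from H3ac, Cplx2, a regulator of synaptic vesicle fusion, one of 105.01 that was 499 bp away, and Cdk5r2, an activator of the kinase CDK5, one of 103.97 that was 153 bp away. Gad1, which makes the transmitter GABA, had a site of 103.33 at 1704 bp, and Vgf, a secreted neuropeptide precursor, one of 88.62 at 721 bp.

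Among the other REST-list sites, some lay over 30 kb from H3ac. Rab3c, a small GTPase of synaptic vesicles, had a site of 114.84 that was 130 kb from H3ac, Glra3, a glycine receptor subunit, one of 62.19 at its end that was 608 kb away, and Nrxn3, a presynaptic adhesion protein, 2 (66.92 and 56.61) that were 630 and 738 kb away. Cacna1a, a calcium channel subunit of presynaptic terminals, held 2 (97.34 and 80.59) that were 39.7 and 30.8 kb from H3ac. Closer to H3ac were the 2 sites of Chrnb2, a nicotinic acetylcholine receptor subunit, 1 of 93.34 centred 169 bp from its start at 7879 bp from H3ac and 1 of 60.08 centred 5152 bp from it at 2567 bp. Syn1, a synaptic vesicle protein on chromosome X, had a site of 76.28 centred 179 bp from its end and 28390 bp from H3ac. Of all 54 genes, 12 had a stronger H3ac-free site within 10 kb, where 1.43% of all protein-coding genes had one. At a gene end 6 of the 54 had one, against 0.222% of all genes. The REST-list genes thus stood above the share of all genes for the stronger H3ac-free sites too. A weaker site with H3ac was within 10 kb of 4 of the 54, against 10.9% of all genes. Among the 22 with a weaker H3ac-free site, Chga and Atp2b2 had a stronger one too.

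**Figure D3:**
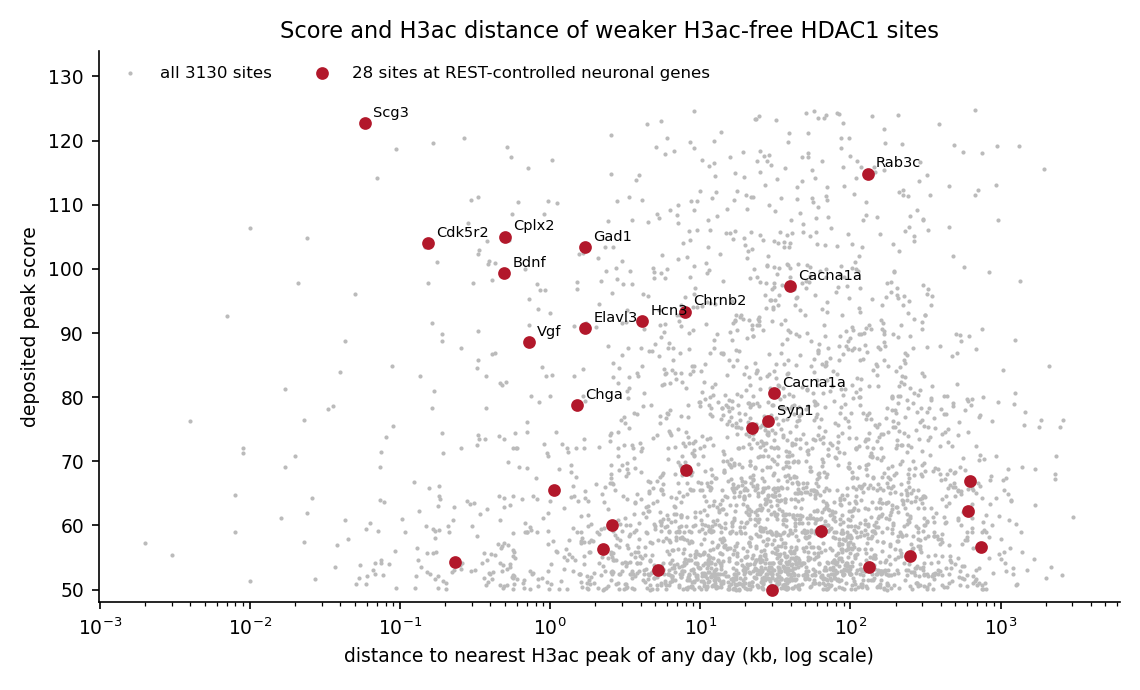
Deposited peak score against distance to the nearest H3ac peak of any day (kb, log scale) for the 3130 weaker H3ac-free HDAC1 sites, grey, with the 28 sites at REST-controlled neuronal genes in red and the higher-scoring ones named. The red points range from 58 bp (Scg3) to 738 kb (Nrxn3).

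Ion channels outside the REST list held mostly sites in their bodies. Kcnh1 and Kcnq1, both potassium channels, had 2 sites each. At gene ends stood sites of Hcn2 (54.00), Kcnc1 (60.01) and Kcnd2 (68.17), beside those of the REST-list genes Hcn3 (91.87) and Scn3b (75.26). Among receptors, Gabbr2, a GABA receptor subunit, and Grik4, a kainate receptor subunit, had 2 sites each. In the axon guidance list Ntm, a neuronal cell adhesion protein, held 3 sites (54.01, 72.33 and 79.61), all over 345 kb from H3ac, and Robo2, a receptor for Slit proteins, held 2.

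In the lists of pluripotency and primed epiblast genes none had a site at its own ends, and most sites were within 10 kb of H3ac (4 of 5 and 5 of 8). Among pluripotency genes 4 of 27 (14.8%) had a site, with a median gene length of 7145 bp. The Sox2 site scored 55.08 and lay 3397 bp from the gene and 1231 bp from H3ac. Esrrb, a nuclear receptor of pluripotent cells, had 1 of 57.62 in its body at 26.2 kb from H3ac, and Dppa5a had 2 (98.37 and 51.78) at 2776 and 4948 bp. No site was within 10 kb of Pou5f1 (nearest 421860 bp) or Nanog (13902 bp), 2 core factors of pluripotency. Among primed epiblast genes the count was 6 of 19 (31.6%), with a median length of 10864 bp, below the 17329 bp of all genes. Otx2, a homeobox factor of the epiblast and forebrain, had a site of 63.56 that was 313 bp from day 2 H3ac, Dnmt3a, a DNA methyltransferase, 2 (72.76 and 60.23) at 1206 and 4927 bp, and Lef1, a transcription factor of Wnt signalling, 2 (101.28 and 70.35) at 3031 and 30008 bp.

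Neural progenitor genes had 4 of 36 (11.1%), mesendoderm genes 2 of 26 and Hox genes 3 of 39, where 10.8% of all genes had a site. The median gene lengths of these lists were 5538, 6424.5 and 3737 bp. Meis1, a homeobox factor, had a site of 54.19 in its body that was 9502 bp from H3ac. Sox1 and Pax6, which mark neural progenitors, had no site within 10 kb, with the nearest 52331 and 70696 bp away. Mesp1, a factor of cardiac mesoderm, had a site of 59.05 centred 403 bp from its start and 54249 bp from H3ac, and Hoxc10 had 2 (52.58 and 56.61).

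Signalling lists stood between 14.3% and 19.05%, on few genes each, where 10.8% of all genes had a site. For Nodal, BMP and TGF-beta signalling 8 of 42 genes had a site, for Wnt 6 of 38, for FGF and ERK 5 of 32 and for Notch 3 of 21. The median gene lengths were 33970, 37553.5, 39905 and 22010 bp in that order, above the 17329 bp of all genes. Genes of 24859 to 57768 bp had a site in 11.2%, and the part of length was not tested. Nodal, a TGF-beta family ligand, had a site of 52.87 that was 295 bp from day 2 H3ac, Bmp6 one of 82.84 that was 118 kb away, and Notch2, a receptor, one of 110.31 that was 1108 bp away. Lefty1, a Nodal antagonist, had no site within 10 kb, the nearest being 172676 bp away.

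Class I HDAC complexes had a site at 4 of 33 genes (12.1%, median length 34612 bp), close to the 10.8% of all genes. A weaker site with H3ac was inside or within 10 kb of 12 of the 33, where 10.9% of all genes had one. Of the 33, 29 had day 2 H3ac at a gene end, against 41.0% of all genes. Rest itself had a site of 51.62 that was 1487 bp from the gene and 8290 bp from H3ac, and Chd4, the NuRD remodeller, one of 57.77. For Mta1, a NuRD subunit, the site scored 107.11 and lay 2737 bp from the gene, at starts of Crip2 and the noncoding F930026P19Rik. That site was 283 bp from day 4 H3ac and 40332 bp from day 2 H3ac. Hdac1 had none within 10 kb, the nearest being 25080 bp away. Polycomb genes had 3 of 26 (11.5%, median length 33471.5 bp). The 15 of 57 clustered protocadherin genes with a site shared 2 sites (57.63 and 58.13), and the median length of that list was 90252 bp. Lists with a low share were cell cycle genes with 2 of 30 (6.67%, median length 11009.5 bp) and ribosomal protein genes with 4 of 76 (5.26%, 3169.5 bp). Olfactory receptor genes had 20 of 1110 (1.80%, median length 950 bp). The shortest 20% of all genes, up to 4315 bp, had a site in 4.67%. A weaker site with H3ac was inside or within 10 kb of 21 of the 76 ribosomal protein genes, where 10.9% of all genes had one. Keratin genes had 5 of 53 (9.43%, median length 7070 bp).

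The nearest H3ac peak of any day was at a median of 30.8 kb (quartiles 8.26 and 102 kb) from a weaker H3ac-free site. It was within 1 kb of 259 sites (8.27%), within 10 kb of 874 (27.9%, 26.4 to 29.5%), within 100 kb of 2335 (74.6%) and over 1 Mb from 47 (1.5%). Gene-end sites had a median of 10.3 kb, gene-body sites 24.98 kb and sites outside genes 49.1 kb. The stronger H3ac-free sites were at a median of 36.6 kb, with 23.9% within 10 kb. The 5 sites farthest from H3ac were all outside genes, at 2354338 to 3056543 bp from it. The farthest, on chromosome X, was 119104 bp from the nearest gene, 4932411N23Rik, and 1 at 2597763 bp was 767493 bp from Cdh8, a cadherin. For 2 the nearest gene was Cntnap5b, a neurexin family member, at 89274 bp and 1965672 bp, and for 1 it was 4931408C20Rik at 608142 bp.

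By day, the median distance was 40.01 kb to H3ac of day 2, 59.4 kb to day 4 and 133 kb to day 6, and the nearest peak came from the day 2 list for 1522 sites (48.6%), day 4 for 935 (29.9%) and day 6 for 673 (21.5%). The lists shrink in the same order. With each H3ac list reduced to its 5286 highest-scoring peaks, as many as the HDAC1 list holds, the medians were 144 kb, 144 kb and 139 kb, and 8.53%, 7.99% and 7.32% of sites had a peak within 10 kb. At equal list size the medians no longer rose from day to day, and the shares within 10 kb kept their order with overlapping intervals (7.602 to 9.56%, 7.09 to 8.99% and 6.46 to 8.28%).

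**Figure D4:**
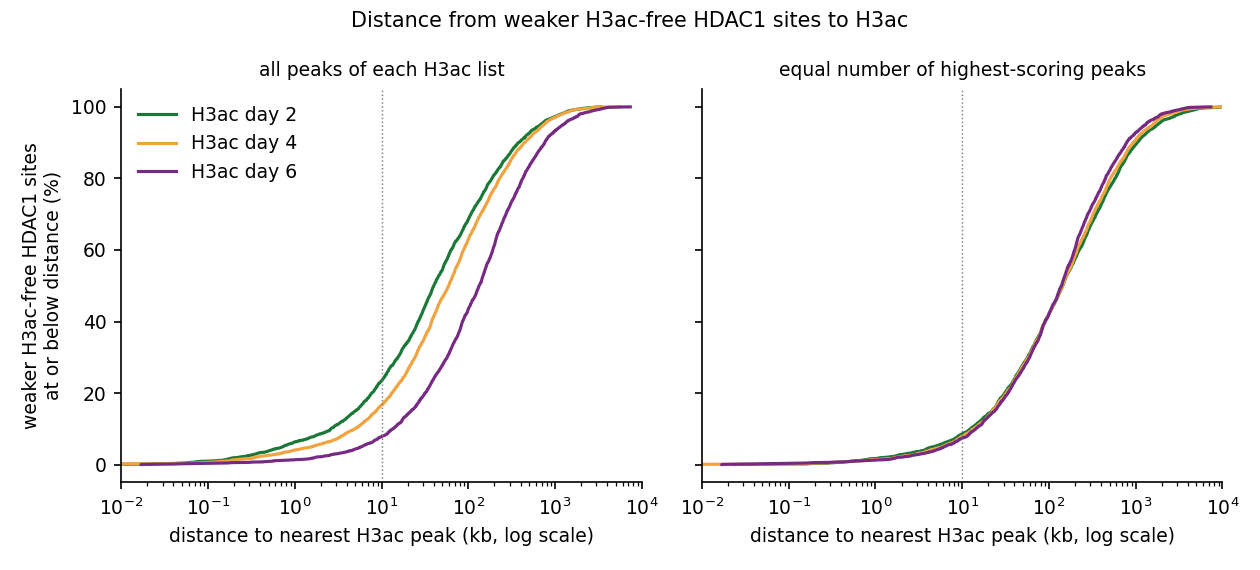
Cumulative share (%) of the 3130 weaker H3ac-free HDAC1 sites by distance to the nearest H3ac peak (kb, log scale) on days 2, 4 and 6, for all peaks of each list (left) and for the 5286 highest-scoring peaks of each (right). The dotted line marks 10 kb. The curves separate on the left (medians 40.01, 59.4 and 133 kb) and nearly coincide on the right (144, 144 and 139 kb).

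The H3ac peaks within 1 kb of a site were of ordinary score on day 2, with a median of 79.2 for the 198 sites concerned against 80.2 for the whole list. On days 4 and 6 they scored 88.3 (129 sites) and 95.9 (42 sites) against 102 and 124. Of the 411 genes with a site at an end, 160 (38.9%, 34.3 to 43.7%) had H3ac within 1 kb of an end on day 2. The count was 131 (31.9%, 27.6 to 36.5%) for day 4 and 52 (12.7%, 9.78 to 16.2%) for day 6. All protein-coding genes had 41.0%, 38.4% and 23.6%. A gene whose site lies at 1 end can carry H3ac at the other, and sites on an H3ac peak were left out by the rule, so these shares are lowered by construction.

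The sites were mostly solitary. Another weaker H3ac-free site lay within 1 kb of 36 sites (1.15%), within 10 kb of 219 (6.997%, 6.15 to 7.94%) and within 100 kb of 1084 (34.6%), and the median distance to the next was 183 kb. Weaker sites with H3ac had a neighbour of their own class within 10 kb for 16.9% (15.1 to 18.8%), although they are fewer. Any HDAC1 peak was within 10 kb of 354 sites (11.3%), against 24.5% for weaker sites with H3ac.

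Joined at gaps of at most 10 kb, the sites formed 2911 singles, 105 pairs and 3 groups of 3. One group (107.35, 64.52 and 60.45) lay on chromosome 2 in 13362 bp without an annotated gene, 78605 bp from H2al2a, a histone variant gene. Another lay around the start of Grip2, a glutamate receptor interacting protein, with scores of 76.63, 51.64 and 54.31, and the third inside Stag3, a subunit of meiotic cohesin, with 59.05, 66.45 and 55.68. The pairs with the highest summed scores were in Pakap (121.23 and 100.30) and 496 bp from Gm1979 (94.98 and 106.47), where they overlapped the pseudogene Gm5067.

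Chromosome X held few of these sites. It had 18 of 3130 (0.575%, 0.364 to 0.907%), or 0.105 per Mb, while the autosomes ranged from 0.882 per Mb on chromosome 3 to 1.88 per Mb on chromosome 11. All HDAC1 peaks had 24 of 5282 on X (0.454%, 0.306 to 0.675%), so the low share was that of the whole HDAC1 list. X holds 4.47% of protein-coding genes, and 1.61%, 1.499% and 3.60% of H3ac peaks on days 2, 4 and 6. On X there were 6 stronger H3ac-free sites and none of the 1623 weaker sites with H3ac. The number of X chromosomes in the cells is not given in the sources used here, and its part was not tested.

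The promoter windows of RefSeq, 300 bases around each start, could be read for the sequence under the sites. Of 32619 windows, 170 were overlapped by 155 sites at the starts of 165 genes, 136 of them protein-coding. These windows were rich in CpG, with a median of 18 per window (quartiles 11 and 27) against 7 over all windows and 23 under weaker sites with H3ac. Their median GC content was 61.3%, against 53% over all windows and 61.0% under weaker sites with H3ac.

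Of 16 short motifs searched on both strands, 2 were the RE1 cores. GGACAGC stood in 25 windows (14.7%, 10.2 to 20.8%) against 6.60% of all windows and 7.94% of those under weaker sites with H3ac, and CAGCACC in 20 (11.8%, 7.75 to 17.5%) against 7.19% and 7.58% (5.97 to 9.58%). For CAGCACC the interval thus overlapped that of weaker sites with H3ac. The peak itself covered GGACAGC in 22 of the 25 windows and CAGCACC in 16 of the 20. Both were present in 9 windows (5.29%, 2.81 to 9.75%), each time with both cores under the peak, against 0.579% of all windows and 1.20% under weaker sites with H3ac. Stronger H3ac-free sites covered 17 windows, with each core in 3 (17.6%, 6.19 to 41.0%) and both in 1 (5.88%, 1.05 to 27.0%), as high as under the weaker sites but on few windows. The GC box GGGCGG of Sp and Klf factors was in 67.1%, against 35.9% and 60.6%. The Ets motif CCGGAAG was in 13.5% (9.19 to 19.5%), against 8.92% and, under weaker sites with H3ac, 31.3% (28.2 to 34.5%). The other motifs were CANNTG (E-box) and its forms CACGTG and CAGGTG, which count under it too, TGANTCA (AP-1), ACAATGG (Sox), ATGCAAA (POU octamer), AGGTCA (nuclear receptors), AGGGGGC (CTCF), GGAATG (Tead), GCGCATG (Nrf1), CCAAT (NFY) and TGACGTC (Creb). Of these, the CTCF letters were in 17.6% (12.7 to 24.1%) of the windows against 10.7% of all and 16.8% under weaker sites with H3ac, and the Sox letters in 0 of 170, which allows up to 2.21%, against 3.68% and 1.20%. The part of CpG content in these shares was not tested.

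**Figure D5:**
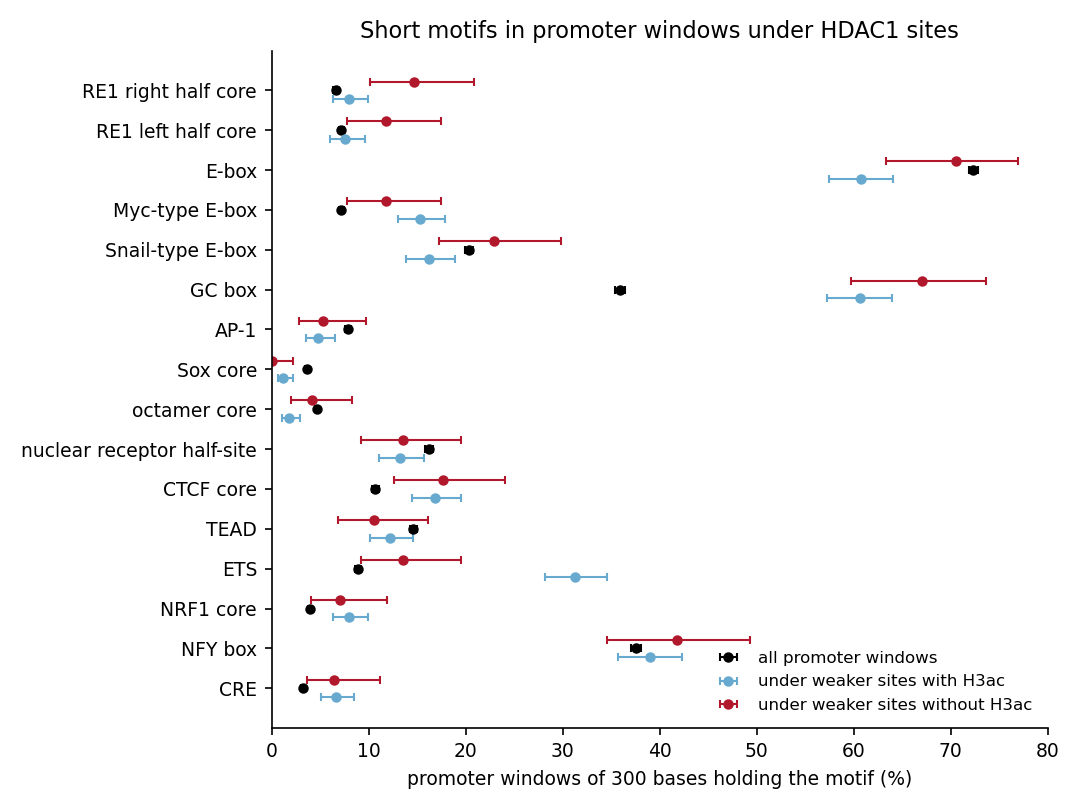
Percentage of 300-base promoter windows that hold each of 16 short motifs, for all 32619 windows (black), the 831 under weaker sites with H3ac (blue) and the 170 under weaker sites without H3ac (red), with 95% Wilson intervals. The red RE1 cores, at 14.7% and 11.8%, lie above both other groups, though the interval at 11.8% overlaps the blue one. The Ets motif is high in blue.

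RE1 cores in the order and orientation of the full element, with a spacer of 1 to 3 bases, stood in 8 of the 32619 windows (0.0245%). Sites without H3ac covered 5 of them, 4 weaker (Lhx3, Fbll1, Ogdhl and Ttc9b, printed above) and 1 stronger (Gm32659, with a score of 434.46). No window under the 831 of weaker sites with H3ac had such a pair, and the remaining 3 (Hrh3, Osbp2 and Gm39218) were 117616 bp or more from any HDAC1 peak. The pair was 42 bp from the centre of the peak at Lhx3, 45 bp at Fbll1, 26 bp at Ogdhl and 22 bp at Ttc9b. These sites scored 97.87, 116.76, 68.38 and 63.37 and lay 27242, 27655, 4044 and 19265 bp from the nearest H3ac peak. Lhx3 encodes a homeobox factor of motor neurons and the pituitary, and Ogdhl an oxoglutarate dehydrogenase-like enzyme of the brain.

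Pairs with a spacer of 4 to 20 bases stood in 13 windows, of which 4 were under weaker H3ac-free sites, 2 under weaker sites with H3ac (Tpm3 and Lrp11), 1 under a stronger site with H3ac (Unc13a) and 6 under no HDAC1 peak. The 4 were Grm2, a metabotropic glutamate receptor, and Kcnh6, a potassium channel, with a spacer of 7 bases, the noncoding LOC108167704 with 8, and Marchf4, a ubiquitin ligase, with 9. Their peaks scored 62.38, 63.78, 53.02 and 77.02, and the pairs lay 35, 74, 20 and 6 bp from the peak centres. The ninth window with both cores was that of Rph3a, which encodes the synaptic vesicle protein rabphilin, with a peak of 97.74 and the cores not paired in this way. A match is a match of letters in these windows and not a measured binding site, and the pairing was looked for after the motif counts had been seen.

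MicroRNA hairpins had a site within 10 kb in 62 of 1005 cases (6.17%), from 43 sites, against 7.96% for weaker sites with H3ac. A site of 64.57 (chrX:52741843-52742209) overlapped the hairpins Mir92-2, Mir19b-2 and Mir20b of the Mir106a to Mir363 cluster, 453 bp from day 2 H3ac, 1668 bp from day 4 and 169431 bp from day 6. A site of 65.95 (chr7:3221640-3221863) lay 799 bp downstream of Mir295, the last hairpin of the ESC cluster Mir290 to Mir295, and 1070 bp from day 2 H3ac, 67513 bp from day 4 and 1717 bp from day 6. Of the seeds printed above, miR-20b-5p and miR-106a-5p of the first cluster carry AAAGUGC, and miR-294-3p and miR-295-3p of the second carry AAGUGCU.

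Of the other hairpins, a few known from neurons or muscle are given as examples. Mir137 had a site of 98.09 lying 2094 bp upstream, at least 1349592 bp from H3ac of any day. Mir132 and Mir212 shared a site of 59.79 that was 2641 bp upstream of Mir212 and 7258 bp from H3ac. That site also overlapped a promoter window of the protein-coding gene Hic1. Mir9-3 had a site of 52.85 at 5672 bp upstream and 33198 bp from H3ac. The muscle genes Mir206 and Mir133b shared a site of 103.83, 2883 bp upstream of Mir206 and 102170 bp from H3ac. These microRNA genes were picked after their values were seen, and they stand for no theme among the 62 hairpins.

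The sites crowd at the low end of the score. Of the 3130, 869 (27.8%) scored from 50, the floor of the list, to below 55, and 257 (8.21%) from 100 to 124.75. The share at gene ends was between 11.4% and 13.4% in the 5 bands below 100 and 8.56% (5.72 to 12.6%) above it. The share of HDAC1 peaks without H3ac lay between 63.7% and 68.1% in each of 6 bands. The 5 sites just under the score limit scored 124.29 (Drd2), 124.35, 124.56, 124.59 and 124.75, and the 5 just over it 125.15, 125.20, 125.22, 125.34 and 125.86. At the other limit, the 5 sites nearest to H3ac were 2 bp (near Rwdd1), 3 bp (Mtor), 4 bp (Spink4), 7 bp (Gad2) and 8 bp (Abraxas1) from a peak edge, and 5 weaker sites overlapped H3ac by 1 (Birc6) to 3 bp and so were left out. In all, 57 sites (1.82%) lay within 100 bp of an H3ac peak, and 67 of the weaker sites with H3ac overlapped it by at most 100 bp.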

How the data were processed

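The submitters' processing notes name Bowtie 0.12.8 and the mouse genome build mm10. Peak names in the deposited files start with MACS, a peak caller. Its version and threshold, and how input reads entered, were not given in the sources used here. The deposited peak score of each site is the authors' value, its scale is not stated, and it was used only to choose or describe peaks within the HDAC1 list and to rank peaks within an H3ac list. Each file held the peaks of 1 ChIP library. Depth is unknown, so a missing H3ac peak can also be a peak not called.

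Overlap meant 1 shared base, and distances run from edge to edge. Genes came from a RefSeq table of GRCm38.p6, which shares the coordinates of mm10: 21631 protein-coding genes, with start and end but no exons. Strand came from the RefSeq promoter windows and was known for 79.9%, and no windows of chromosome 18 were used here. Location followed the midpoint of a site. Coordinates are 1-based. Shares have 95% Wilson intervals, and no p-value was computed because each group has 1 library. Scripts ran in Python 3.11.15 with pandas 2.3.3, and the steps that measure gaps, assign classes and locate sites at gene ends were tested on simulated data.

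The sites and the 20 gene lists were chosen with earlier results of these data known. The named genes were the 10 with most sites, up to 4 per list, those at the 10 highest-scoring gene-end sites, the 5 largest groups of sites, the 5 sites farthest from H3ac and 10 candidates (Hdac1, Pou5f1, Sox2, Nanog, Pax6, Sox1, Otx2, Meis1, Nodal and Lefty1). The spacing of RE1 cores, the microRNA scan, the shares of all bases and the medians with H3ac lists of equal size were added after the data were seen. Other REST-list, channel and receptor genes, the promoter and microRNA genes and the genes at the limits were named after their values were seen. Some results are not reported here.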

Additional observations from a re-analysis of the deposited data

How the results depend on the processing

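The number of sites stayed within 1.5 times of 3130 under the alternatives run, from 2553 to 3404. The share at gene ends (12.1%) was 8.18% with a 0.5 kb window, 19.04% with 2.5 kb, 9.27% and 8.93% when H3ac within 1 or 5 kb removed a site, and 16.6% with all annotated genes. The share outside genes (44.3%) was 41.6% with the 2.5 kb window, 46.5% and 47.9% with those removals and 35.0% with all genes. The share within 10 kb of H3ac (27.9%) was 18.4% at 5 kb, 44.9% at 25 kb, 23.4% with the day 2 list alone, 15.8% with the higher-scoring 50% of each H3ac list and 12.8% with lists of equal number. The share with a neighbour within 10 kb (6.997%) was 4.41% at 5 kb and 21.8% at 50 kb. The number of genes (2328) was 1472 for sites inside the gene and 4891 within 50 kb. These limits and lists change what is counted by construction.

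Counting only sites inside the gene left 1 gene each for pluripotency, neural progenitor, Hox, Notch, HDAC complex, keratin and cell cycle genes, 3 each for primed epiblast, Wnt and FGF genes, 2 olfactory receptor genes and 0 ribosomal protein genes. Counting only gene ends left 7 REST-controlled genes, 5 channels, 4 receptors, 3 keratins, 2 genes each for Nodal, BMP and TGF-beta signalling and ribosomal proteins, and 1 each for mesendoderm, Hox and Wnt genes. It left 0 for the axon guidance, pluripotency, primed epiblast, neural progenitor, FGF, Notch, HDAC complex, Polycomb, protocadherin, olfactory receptor and cell cycle lists.

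No paired analysis was possible because each target and day has a single library and no test was made. Depth is unknown, so weak H3ac that was not called cannot be told apart from its absence.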
